A study of Mus musculus with 6 samples.

Results

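The interferon regulatory factors (IRFs) are a family of transcription factors that share a DNA-binding domain with conserved tryptophans. The 8 genes described here, Irf1, Irf2, Irf3, Irf4, Irf5, Irf7, Irf8 and Irf9, were taken by symbol, and all 8 were among the 19938 genes measured. Where a gene had more than 1 probe set with its symbol alone, the one brightest over the 6 arrays was used, and no probe set naming several genes included a member.

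The cells were mouse pre-B cells of the C57Bl/6 strain transformed with BCR-ABL1, the fusion kinase that drives Ph+ acute lymphoblastic leukaemia. All carried a floxed Bcor allele on the single X chromosome of a male (Bcor fl/Y). Bcor encodes a corepressor of BCL6 and of the polycomb complex PRC1.1. The 3 ERT2 arrays came from cells transduced with the vector PMIP-ERT2, which lacks Cre, and the 3 Cre-ERT2 arrays from cells transduced with PMIP-CRE-ERT2, whose Cre recombinase becomes active with tamoxifen. All cells were kept in 4-hydroxytamoxifen, at 0.5 micromolar, over 2 days and were selected with puromycin. The labels do not say how many clones or separate cultures were used, so p-values measure the spread between these arrays, which may be technical, nor do they say which part of Bcor is floxed or how old the donor animals were. The question behind the comparison, from the series title, is what Bcor does in such cells. No arrays came from Cre-ERT2 cells without the floxed allele. Differences that come with loss of Bcor and with active Cre therefore cannot be told apart here.

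IRFs bind variants of a GAAA repeat, the core of the interferon-stimulated response element, and carry signals from pathogen sensors and interferon receptors to the genome. IRF3, IRF5 and IRF7 are activated by phosphorylation downstream of these sensors, IRF9 joins STAT2 in the interferon-activated complex ISGF3, and IRF1 and IRF2 act as activator and antagonist at shared sites. IRF4 and IRF8 bind ETS-IRF composite sites together with PU.1 or SPIB, and in pre-B cells they promote light chain rearrangement and limit the pre-B cell receptor. Because several IRFs are controlled at the protein level, an RNA level does not measure their activity.

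The promoters of both members that passed the test, Irf1 and Irf9, and of Irf2, which was added after its matches had been seen, are shown because IRF genes can themselves be targets of IRF and STAT proteins. Sequences are from RefSeq (GRCm38.p6), run 5′ to 3′ on the plus strand from 250 bases before to 50 bases after a transcript start, and capitals mark matches to any of the motifs searched. The Irf1 window shown is chr11:53769764-53770063, the Irf9 window shown chr14:55603735-55604034 and the Irf2 window chr8:46739495-46739794. Each lies at the annotated start of its gene.
Irf1: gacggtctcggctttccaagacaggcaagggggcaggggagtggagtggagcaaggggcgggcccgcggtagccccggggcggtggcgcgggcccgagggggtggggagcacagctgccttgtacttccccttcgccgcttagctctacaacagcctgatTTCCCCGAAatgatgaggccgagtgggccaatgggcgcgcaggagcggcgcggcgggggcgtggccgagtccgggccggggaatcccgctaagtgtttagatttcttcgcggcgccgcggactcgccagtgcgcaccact
Irf9: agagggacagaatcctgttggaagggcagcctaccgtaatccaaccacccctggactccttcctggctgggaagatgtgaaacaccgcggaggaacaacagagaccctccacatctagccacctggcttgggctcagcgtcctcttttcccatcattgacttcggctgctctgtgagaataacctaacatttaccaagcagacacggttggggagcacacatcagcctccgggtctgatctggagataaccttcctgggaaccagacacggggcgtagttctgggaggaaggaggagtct
Irf2: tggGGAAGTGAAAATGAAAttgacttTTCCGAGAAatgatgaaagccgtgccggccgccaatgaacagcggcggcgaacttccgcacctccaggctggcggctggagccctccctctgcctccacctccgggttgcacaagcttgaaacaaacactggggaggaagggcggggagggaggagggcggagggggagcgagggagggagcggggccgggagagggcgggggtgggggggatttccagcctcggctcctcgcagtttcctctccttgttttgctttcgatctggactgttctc

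The motifs were searched on both strands. The response element core was GAAA, any 2 bases and GAAA again, the STAT site was TTC, any 3 bases and GAA, and the ETS-IRF composite was GGAA, any 2 bases and GAAA. The composite with GT as its middle bases was also counted on its own. All 8 members had at least 1 promoter entry, in 11 windows. A STAT match lay in 3 of the 11 windows, 1 each for Irf1, Irf2 and Irf8, and 8.3% of all 32851 promoter windows of this length held one. The Irf1 match TTCCCCGAA starts 90 bases before the transcript start. The response element core and the composite matched in 1 window, that of Irf2, where they overlap by 4 bases, and 3.44% and 2.72% of all windows held them. The composite with GT in the middle, found in 0.225% of all windows, is the one in Irf2. The Irf9 window shown held none of these letters. Irf1 and Irf9 each had another window, which held no match either. A match is a description of the sequence, and no binding was measured.

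Irf9 and Irf1 rose with Cre-ERT2, by 1.21-fold and 1.20-fold, and no member fell past the test. Irf5, Irf2, Irf7 and Irf4 had higher means without passing it, and Irf3 and Irf8 had lower means. Over all 19938 genes, limma called 7.03% at an adjusted p under 0.05, 4.05% higher and 2.98% lower, where 2 of 8 members were called, both higher. In 7 of 8 members the values of the groups did not overlap, 6 with Cre-ERT2 higher and 1 with it lower. The share of all genes without overlap was 29.9%, with 9.56% higher and 20.3% lower. The median log2 fold change of the members was 0.13, against -0.037 over all genes. Fold changes are log2 Cre-ERT2 minus ERT2, with the moderated standard error (SE), on the log2 scale of the deposited values. In bulk RNA, fewer cells expressing a gene and less RNA per cell cannot be told apart.

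**Figure D1:**
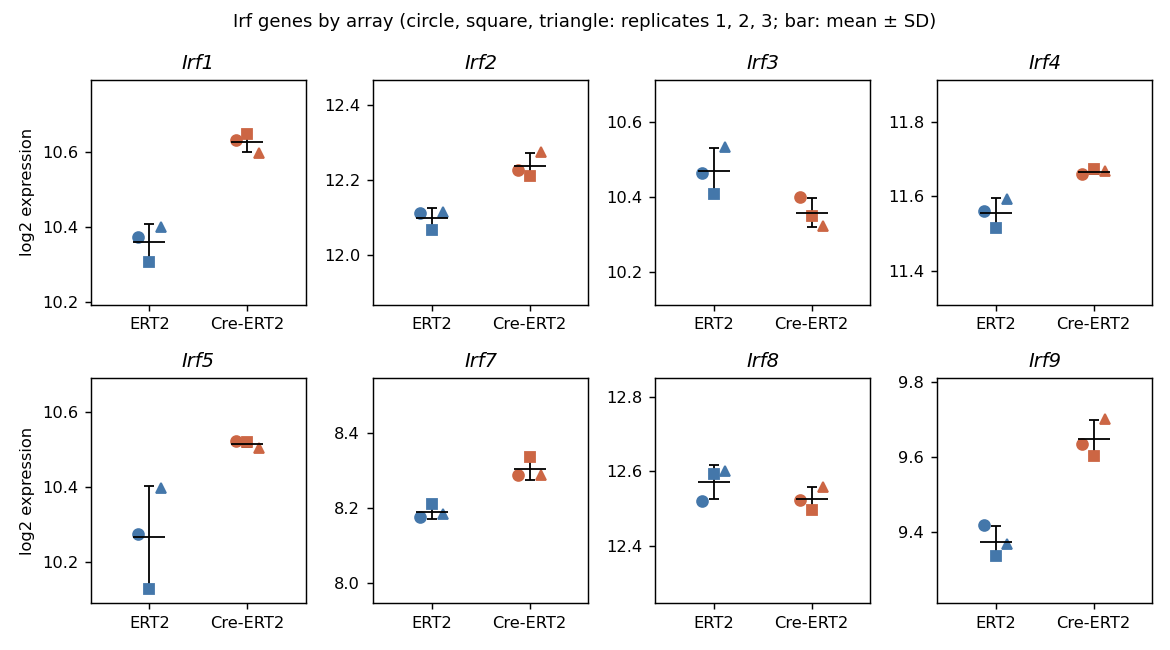
Log2 expression of each Irf gene in the 3 ERT2 and 3 Cre-ERT2 arrays, with symbols for replicates 1 to 3 and the bar at the mean ± SD; every panel spans the same width on the log2 axis but has its own origin. The groups are apart in all panels except Irf8, and the ERT2 values of Irf5 are the widest, from 10.13 to 10.40.

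The label of the Cre-ERT2 arrays was checked on Bcor, which stood at 10.07, 10.11 and 10.17 in the ERT2 arrays and at 9.08, 9.22 and 9.18 in the Cre-ERT2 arrays (log2 fold change -0.96, SE 0.0491, limma adjusted p = 2.11e-05). Median log2 values per array lay between 8.61 and 8.68. For 9 measured B-lineage markers, the mean log2 level was 12.01 to 12.04 in ERT2 and 12.08 to 12.11 in Cre-ERT2. Of these 9, Dntt (terminal transferase) was called higher, at 0.86, and Rag1 lower, at -0.38. That is 22.2% called against 7.03% of all genes, and the other 7 lay between -0.14 (Ebf1) and 0.094 (Cd79b).

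Irf9, the DNA-binding subunit of ISGF3, stood at 9.42, 9.34 and 9.37 in ERT2 replicates 1 to 3 and at 9.64, 9.60 and 9.70 in Cre-ERT2 replicates 1 to 3. Every Cre-ERT2 array lay above every ERT2 array. The means were 9.38 ± 0.0413 and 9.65 ± 0.0513 (SD, n = 3 each). Irf9 thus rose by 0.27 on the log2 scale (SE 0.0433), with adjusted p = 0.00675 by limma. The call held with each of the 6 arrays left out in turn, at adjusted p from 0.0194 to 0.0283.

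Irf1, an activator of antigen presentation and interferon response genes, stood at 10.37, 10.31 and 10.40 in the ERT2 arrays and at 10.63, 10.65 and 10.60 in the Cre-ERT2 arrays. The groups did not overlap. The means were 10.36 ± 0.0480 and 10.63 ± 0.0248 (SD, n = 3 each), and the log2 fold change was 0.27 (SE 0.0407, limma adjusted p = 0.00556). With single arrays left out the adjusted p lay between 0.0122 and 0.0342. Irf1 was the one member with 2 probe sets. The second, which the annotation matches to a single cDNA record, stood at 8.87, 8.79 and 8.67 in ERT2 and at 8.75, 8.78 and 8.94 in Cre-ERT2. These values overlapped, with a log2 fold change of 0.047 (SE 0.0680). With the mean of both probe sets in place of the brighter one, Irf1 was at 0.16 (SE 0.0424) and its call was lost (limma adjusted p = 0.0655).

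Irf2, which competes with IRF1 for the same elements, was at 12.11, 12.07 and 12.12 in ERT2 and at 12.23, 12.21 and 12.28 in Cre-ERT2. The groups were apart, with a log2 fold change of 0.14 (SE 0.0387, 95% interval 0.051 to 0.23, limma adjusted p = 0.0709). Irf2 did not pass the threshold with all genes tested. It passed when the dimmest 30% of genes were left out (limma adjusted p = 0.0362), after cyclic loess between arrays (0.0427) and with an intensity trend in the variance (0.0193).

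Among the IRFs activated downstream of sensors, Irf5, which acts below Toll-like receptors and MYD88, had the widest spread. It stood at 10.27, 10.13 and 10.40 in ERT2 and at 10.52, 10.52 and 10.50 in Cre-ERT2. The SD was 0.135 in ERT2 and 0.00914 in Cre-ERT2, so the 3 ERT2 arrays set most of the error. The log2 fold change was 0.25 (SE 0.0638, 95% interval 0.10 to 0.39), nearly that of Irf1, but the limma adjusted p was 0.0537. Without ERT2 replicate 3, the highest of its group, the value was 0.31 and the adjusted p 0.0200. With any other single array left out the call was not made, and the highest adjusted p was 0.158. Irf5 also passed with the dimmest 30% of genes left out (0.0281).

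Irf7, a main activator of interferon alpha genes that interferon itself induces through ISGF3, was at 8.17, 8.21 and 8.18 in ERT2 and at 8.29, 8.34 and 8.29 in Cre-ERT2. The groups were apart and the log2 fold change was 0.11 (SE 0.0371, 95% interval 0.030 to 0.20, limma adjusted p = 0.113). Irf3, which is present before infection and is switched on by phosphorylation, was at 10.46, 10.41 and 10.53 in ERT2 and at 10.40, 10.35 and 10.32 in Cre-ERT2. It was the one member whose Cre-ERT2 arrays all lay below the ERT2 arrays. Its log2 fold change was -0.11 (SE 0.0453, 95% interval -0.21 to -0.0070), and it did not pass (limma adjusted p = 0.191).

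The lymphoid pair differed little between the groups. Irf4, which promotes light chain rearrangement and later plasma cell fate, stood at 11.56, 11.52 and 11.59 in ERT2 and at 11.66, 11.67 and 11.67 in Cre-ERT2. The groups were apart, but the log2 fold change was 0.11 (SE 0.0380, 95% interval 0.023 to 0.20) and limma gave adjusted p = 0.132. Irf8, needed for several B cell and myeloid fates, stood at 12.52, 12.59 and 12.60 in ERT2 and at 12.52, 12.50 and 12.56 in Cre-ERT2. It was the one member whose groups overlapped. Its log2 fold change was -0.045 (SE 0.0408, limma adjusted p = 0.536), and the 95% interval from -0.14 to 0.048 leaves out changes of the size measured for Irf1 and Irf9.

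**Figure D2:**
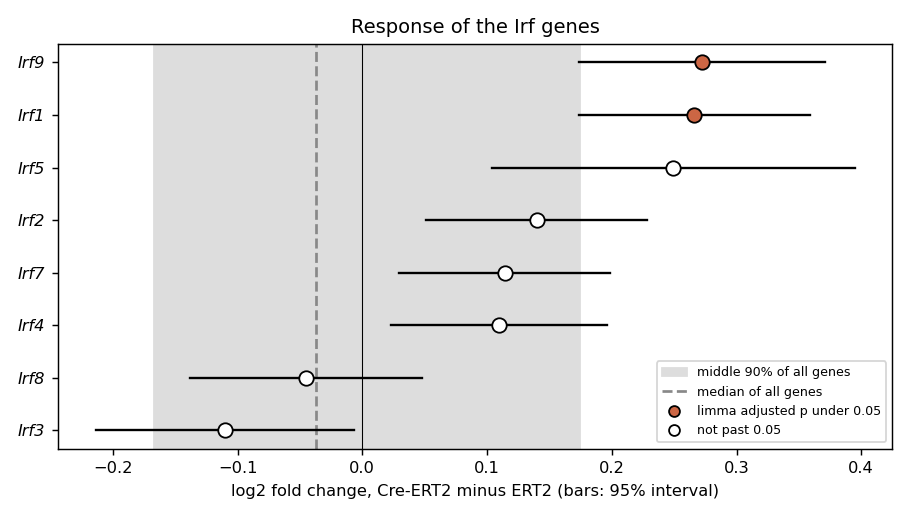
Log2 fold change (Cre-ERT2 minus ERT2) of each Irf gene with its 95% interval; filled points passed a limma adjusted p of 0.05, the grey band holds the middle 90% of all genes and the dashed line is their median, -0.037. Irf9, Irf1 and Irf5 lie above the band, whose limits are -0.17 and 0.17, and the other 5 lie inside it.

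ERT2 replicate 2 was the lowest of its group in 6 of 8 members, the exceptions being Irf7 and Irf8. Over all genes that array was the lowest of its group in 43.1%. Its part in the members' differences was measured by leaving it out: Irf9 was then at 0.25 and Irf1 at 0.24, both still called, and the values of Irf5 and Irf4 fell to 0.18 and 0.089.

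**Figure D3:**
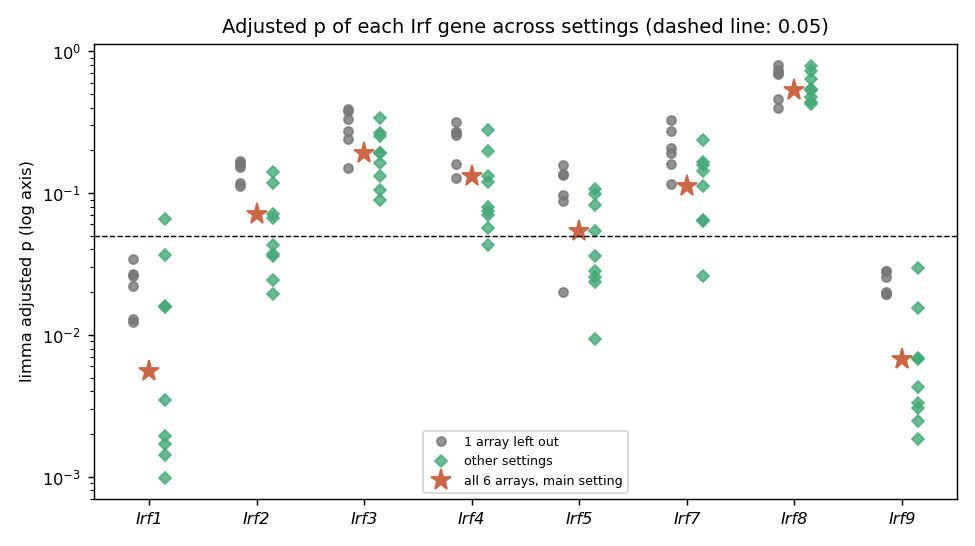
Limma adjusted p of each Irf gene on a log axis, with the main setting as a star, fits with 1 array left out as circles and the other settings as diamonds; the dashed line is 0.05. Irf9 lies below the line throughout, Irf1 crosses it with the mean of its probe sets, Irf2, Irf4, Irf5 and Irf7 cross it downward under some settings, and Irf3 and Irf8 stay above it in every setting drawn, which leaves out the threshold of 0.1 and the test against 0.2.

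Whether paralogues responded unequally was asked within arrays, from the log2 value of one gene minus that of the other. The SE of these shifts comes from the variance within each group and is not moderated. The difference Irf4 minus Irf8 rose from -1.02 ± 0.0595 in ERT2 to -0.86 ± 0.0351 in Cre-ERT2 (SD, n = 3), a shift of 0.16 (SE 0.0399). Irf1 minus Irf2 shifted by 0.13 (SE 0.0363), and Irf3 minus Irf7 by -0.22 (SE 0.0532). Irf9 minus Stat2, its ISGF3 partner, shifted by -0.12 (SE 0.0292). In each pair the values of the groups did not overlap. The exact two-sided permutation test gave p = 0.1 for each of the 4 pairs, which is the smallest that 3 arrays against 3 allow, and p = 0.1 after Benjamini-Hochberg adjustment over the 4, so none could pass. With the mean of its probe sets for Irf1, the shift of Irf1 minus Irf2 was 0.017.

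**Figure D4:**
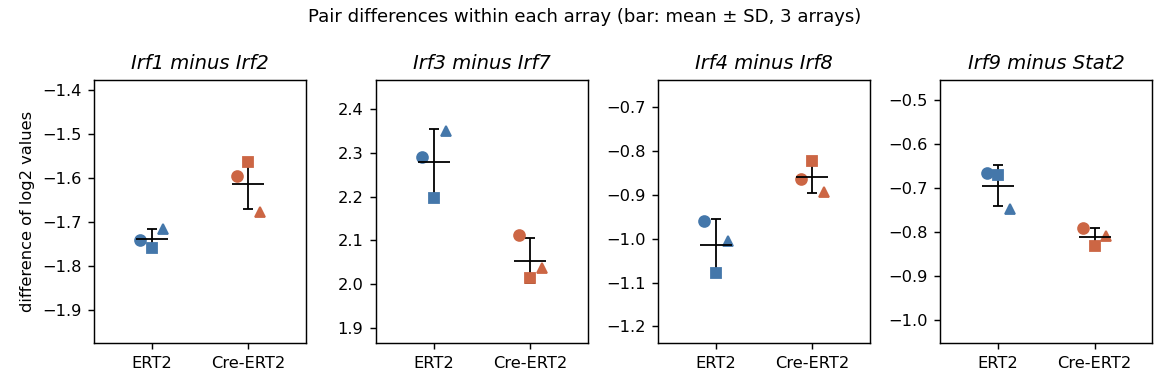
Log2 value of the first gene minus that of the second in each array for 4 pairs, with symbols for replicates 1 to 3 and the bar at the mean ± SD. Irf1 minus Irf2 and Irf4 minus Irf8 are higher in Cre-ERT2, Irf3 minus Irf7 and Irf9 minus Stat2 are lower, and no pair's groups overlap.

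Over the 6 arrays, the genes whose values followed Irf1 most closely were Plcb2, which encodes a phospholipase C (Pearson r = 0.999), Lrrn3 (0.999) and Kbtbd11 (0.998). Those closest to Irf9 were Fbxl20, an F-box protein gene (0.998), Dcaf6 (0.997) and Itpr3, an inositol trisphosphate receptor gene (0.996). Likeness was measured over 6 arrays that fall into 2 groups and share a normalization, so it carries mostly the difference between groups, and it is given as a description. Among these 6 genes the log2 fold change ran from 0.16 (Lrrn3) to 0.77 (Kbtbd11).

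A list of IRF partners, which also held Bcl6 and the coactivator genes Crebbp and Ep300, had 21 measured genes. Of these, 4 rose and 0 fell, a share of 19% called against 7.03% of all genes, and the list's median was 0.056. Spib, the ETS factor that recruits IRF4 and IRF8 to composite sites, was at 10.20, 10.14 and 10.30 in ERT2 and at 11.03, 10.98 and 11.01 in Cre-ERT2. It rose by 0.79 (SE 0.0478, limma adjusted p = 3.82e-05), while Spi1, which encodes PU.1 and shares those sites, was at 0.084 (adjusted p = 0.328) with overlapping groups. Stat2 was at 10.09, 10.01 and 10.12 in ERT2 and at 10.43, 10.44 and 10.51 in Cre-ERT2, and rose by 0.39 (SE 0.0452, limma adjusted p = 0.00134). The AP-1 genes Jun and Batf, whose products form composites with IRF4 and IRF8, rose by 0.31 (SE 0.0370) and 0.28 (SE 0.0522). The Batf call was lost without replicate 1 or 2 of either group (adjusted p up to 0.0686). Bcl6, the repressor that BCOR serves and that itself is an IRF target, was at 0.14 (limma adjusted p = 0.0742).

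Of 15 measured IRF-binding proteins and inhibitors of the pathway 4 rose and 0 fell, 26.7% called against 7.03% of all genes, with a median of 0.056. Usp18, which removes ISG15 and dampens the interferon receptor, rose by 0.65 (SE 0.0491). Socs3 and Socs1, which block JAK kinases, rose by 0.33 (SE 0.0506) and 0.21 (SE 0.0519), and Def6, which encodes an IRF4-binding protein, by 0.32 (SE 0.0454). The limma adjusted p for these 4 genes lay between 0.000143 (Usp18) and 0.0468 (Socs1). The Socs1 call was lost with any single array left out but Cre-ERT2 replicate 2, and that of Socs3 with the mean of its probe sets. The corepressors of IRF2 were not called: Irf2bp1 was at -0.15, Irf2bp2 at 0.10 and Irf2bpl at 0.044, values chosen after they were seen.

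Upstream of IRF3, IRF5 and IRF7, 8 of 23 measured sensors, adaptors and kinases rose and 1 fell. That is 39.1% called against 7.03% of all genes, with a list median of 0.11. Tlr9, the receptor for unmethylated DNA in endosomes, was at 9.82, 9.79 and 9.90 in ERT2 and at 10.41, 10.51 and 10.56 in Cre-ERT2, a rise of 0.65 (SE 0.0510, limma adjusted p = 0.000164). The cytosolic RNA sensor gene Ddx58, which encodes RIG-I, rose by 0.47 (SE 0.0395) and its relative Dhx58 by 0.51 (SE 0.0881). Tlr4, whose product senses bacterial lipopolysaccharide, fell by 0.53 (SE 0.0414). These 4 calls held with each array left out. The kinases that phosphorylate IRF3 and IRF7 were not called, Tbk1 at 0.053 and Ikbke at -0.013, both picked once seen. The 9 calls became 5 without ERT2 replicate 1, and to 4 without ERT2 replicate 2, Cre-ERT2 replicate 1 or Cre-ERT2 replicate 2.

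Among 17 interferons, receptor chains and JAK-STAT genes, 5 rose and 0 fell, Stat2 and Irf9 among them. That is 29.4% called against 7.03% of all genes, with a list median of 0.068. Jak2, a kinase of the interferon gamma receptor, rose by 0.27 (SE 0.0458, limma adjusted p = 0.0098), and the receptor chain genes Il10rb by 0.21 (SE 0.0507) and Ifnlr1, named beyond the rule, by 0.16 (SE 0.0383). Without any 1 array but Cre-ERT2 replicate 3 the Il10rb call was lost, at an adjusted p of at most 0.135. Ifnlr1 lost its call whichever array was left out, at 0.143 at most. No interferon gene was called: Ifnb1 was at -0.081 (adjusted p = 0.322) and Ifng at -0.11 (adjusted p = 0.216), both picked once seen. The count for this list went from 5 to 3 without any 1 of the ERT2 arrays or without Cre-ERT2 replicate 1 or 2.

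**Figure D5:**
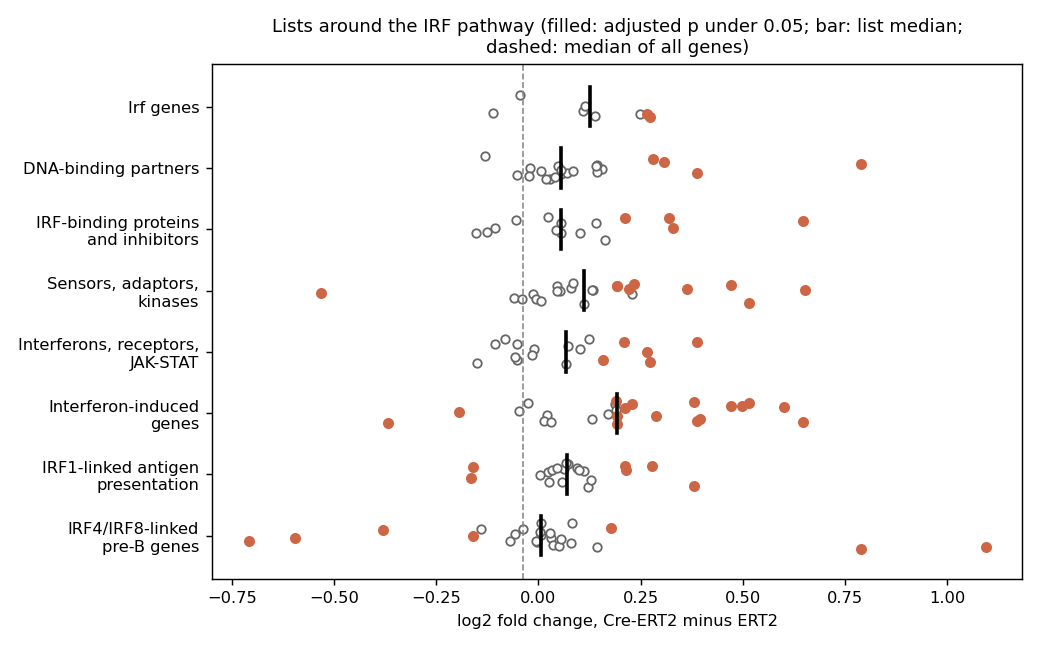
Log2 fold change of the measured genes in 8 lists around the IRF pathway; filled points passed a limma adjusted p of 0.05, bars mark each list's median and the dashed line the median of all genes. The median is highest for the interferon-induced genes, 0.19, and lowest for the pre-B genes linked to IRF4 and IRF8, 0.0073, and Cd74 at 1.09 is the point farthest to the right. The row of DNA-binding partners also holds the coactivator genes Crebbp and Ep300.

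Among 25 measured genes induced through ISGF3, 14 rose and 2 fell, 64% called against 7.03% of all genes, with a median of 0.19. Usp18 was again the largest at 0.65, followed by Oasl2, of the oligoadenylate synthetase family, at 0.60 (SE 0.0594), Dhx58 at 0.51 and the ADP-ribosyltransferase gene Parp14 at 0.50 (SE 0.0707), all called by limma. Ifit2 fell by 0.37 and Oas1a by 0.19, named because they were the exceptions, and the Oas1a call was lost with any 1 array left out and after cyclic loess. Ifit1 (0.17, adjusted p = 0.0786) and Mx1 (-0.025, adjusted p = 0.795), chosen after their values were seen, did not pass. The count of 16 calls was 10 without ERT2 replicate 1 and 9 without Cre-ERT2 replicate 2.

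Among 20 genes linked to IRF1 and antigen presentation that were measured, 4 rose and 2 fell. The share called was 30% against 7.03% of all genes, with a median of 0.070. The guanylate-binding protein gene Gbp5 rose by 0.38 (SE 0.0527, limma adjusted p = 0.00332), the peptide loading genes Tapbp and Tap1 by 0.28 (SE 0.0492) and 0.22 (SE 0.0386), and Socs1 by 0.21. Gbp3 fell by 0.17 (SE 0.0383) and Ciita, the class II MHC activator, by 0.16 (SE 0.0378), both named beyond the rule as the members that fell. The Gbp5 call held with each array left out. Those of Tapbp and Tap1 were lost without ERT2 replicate 1, that of Tap1 also without Cre-ERT2 replicate 1, that of Ciita with any array left out, and that of Gbp3 with any but Cre-ERT2 replicate 3. The count of 6 fell to 1 without ERT2 replicate 1, to 2 without Cre-ERT2 replicate 1 and to 3 without ERT2 replicate 3. Nlrc5, the class I MHC activator, was at 0.026 (adjusted p = 0.732, chosen after its value was seen).

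Of 24 measured pre-B genes linked to IRF4 and IRF8, 3 rose and 4 fell. The share called was 29.2% against 7.03% of all genes, with a median of 0.0073. Cd74, the class II invariant chain gene, rose by 1.09 (SE 0.0649) and Spib by 0.79. The recombinase gene Rag2 fell by 0.71 (SE 0.0876) and the interleukin 7 receptor gene Il7r by 0.60 (SE 0.0372). The limma adjusted p for these 4 genes was 0.00189 at most. The other called members were Rag1 (-0.38), Ciita (-0.16) and the cyclin gene Ccnd2 (0.18), named beyond the rule, and the Ccnd2 call was lost without replicate 1 or 2 of either group. The surrogate light chain genes, which IRF4 and IRF8 repress, were not called, with Igll1 at 0.051 (adjusted p = 0.413) and Vpreb1 at 0.081 (adjusted p = 0.263), both chosen after their values were seen. Stat2, Irf9, Usp18, Dhx58, Ddx58, Spib, Socs1, Ciita and others stand in more than 1 list, so the counts of the lists are not independent.

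Irf5, Irf7 and Irf8 are also expressed in myeloid and dendritic cells, so markers of other cell types were read beside them. Of 12 myeloid markers 1 rose, Lyz2 by 0.45 (SE 0.0662, limma adjusted p = 0.00488), and 0 fell. This is 8.33% called, near the 7.03% called over all genes. At an unadjusted limma p under 0.05, 1 of the 12 was higher and 3 were lower. The mean log2 level of the 12 was 8.004 to 8.022 in ERT2 and 8.022 to 8.035 in Cre-ERT2. Cd68 was at 0.055, 7 of the 12 had lower means, down to -0.13 for Elane, and the list's median was -0.0052. Of 8 conventional dendritic cell markers 1 rose, Flt3 by 0.56, which progenitors also express, and 0 fell, 12.5% called. Their mean level was 7.93 to 7.96 against 7.92 to 8.02. Batf3 was at 0.16, 5 of the 8 had lower means, down to -0.20 for Clec9a, and the list's median was -0.072. Of 7 measured plasmacytoid dendritic cell markers limma called 0, with a mean level of 8.87 to 8.91 against 8.89 to 8.95. The brightest were Tcf4, at 0.16 (limma adjusted p = 0.0721), and Bst2 at 0.022. At an unadjusted p under 0.05, which 23% of all genes passed, 2 of the 7 were higher and 1 was lower. Array values have no true zero, so no marker was called absent, and the part of such cells in the members' values was not tested. Of 6 T cell, 8 stromal and 5 erythroid and megakaryocyte markers limma called 0, and 2, 2 and 1 had an unadjusted p under 0.05, all of them lower. The brightest of them were Cd3e (-0.023) and Cd8a (-0.073), Col1a1 (-0.083) and Col1a2 (-0.10), and Itga2b (-0.041) and Gata1 (-0.012), none of which passed. The mean log2 level was 7.782 to 7.895 in ERT2 against 7.730 to 7.778 in Cre-ERT2 for the T cell markers. It was 8.163 to 8.217 against 8.099 to 8.153 for the stromal markers, and 7.847 to 7.864 against 7.770 to 7.872 for the erythroid and megakaryocyte markers. Of 8 NK cell markers 2 fell, Klrd1 by 0.49 and Ncr1 by 0.23, 25% called. Of 6 plasma cell markers Xbp1 rose by 0.23 and Jchain fell by 0.45, 33.3% called. The bright markers Prf1 (-0.067) and Mzb1 (0.022) did not pass. Mean log2 levels were 7.588 to 7.648 in ERT2 against 7.469 to 7.490 in Cre-ERT2 for NK markers, and 10.41 to 10.50 against 10.42 to 10.43 for plasma cell markers. Thus the NK, T cell and stromal levels were lower in Cre-ERT2 without overlap. Means were lower in 7 of 8 NK, 6 of 6 T cell and 7 of 8 stromal markers, and in 13592 of all 19938 genes.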

How the data were processed

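The authors deposited log2 expression values per probe set from Affymetrix whole-transcript arrays. The submitters' processing notes name RMA and Partek 6.5, in roles not stated. The background setting and genome build are not given in the sources used here. Probe-level intensities were not used, so no detection limit is known, and the number of arrays limits the precision (median SE of a log2 fold change 0.0477).

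Of 35556 probe sets, 21789 had 1 gene symbol, 1621 several and 12146 none listed; gene IDs of 21698 matched the GRCm38.p6 table. The highest-mean probe set stood for each of 19938 genes. Differences were fitted with limma 3.58.1 in R 4.3.3 (lmFit, eBayes) on all 6 arrays, with Benjamini-Hochberg adjustment over all genes and calls at an adjusted p under 0.05. The pipeline was tested on simulated data, where it recovered 39% of 100 changes of 0.25 on the log2 scale and 87% of 100 changes of 0.5. No other genes were changed there, a smaller share than was called in the data. These rates are therefore not the power of the comparison itself. Members and lists were chosen with earlier results of these data known. From each list up to 4 called members of largest change were named, or else the 2 of smallest p. Also named were Stat2, Spi1, Spib, Batf and Bcl6 always, the 2 brightest markers of each other cell type and the 3 genes most like each called member. Genes named beyond this rule are marked, are markers that were called, or stand at the end of a stated range. Alternatives covered the replicate block, trend, array weights, 3 normalizations, 2 filters, probe set rule, thresholds and each array left out. Figures were drawn with Python 3.11.15 and matplotlib 3.10.9.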

Additional observations from a re-analysis of the deposited data

How the results depend on the processing

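Every Irf gene kept its sign under all alternatives run (17, or 16 for Irf7, which the filter on the dimmest 50% removes), as did Bcor. The 4 pair differences kept theirs under the 9 alternatives run for them. Many of these could not alter a sign. The replicate block, trend, filters, threshold of 0.1 and test against 0.2 leave the fold change itself as it was. The mean of probe sets could alter only Irf1 and its pair. Irf3 and Irf8 stayed uncalled and Bcor called in all 17. Irf9 lost its call when tested against a change of 0.2 (value 0.27) and Irf1 there (0.27) and with the mean of probe sets (0.16). Irf2 (0.14) and Irf5 (0.25) were called with an intensity trend, at an adjusted p of 0.1 and without the dimmest 30% or 50% of genes; after cyclic loess they were at 0.15 and 0.26, also called. With array weights, Irf2 (0.12), Irf4 (0.11), Irf5 (0.26) and Irf7 (0.13) were called. With single arrays left out Irf5 ran from 0.18 to 0.31.

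The count over all genes, 1402, was 805 with the replicate block, 3339 with array weights (39.4% higher, against 57.6%), 2271 at 0.1, 222 against 0.2, and 743 to 1341 with single arrays left out; cyclic loess left 67.9% higher. Deviations from the group means correlated at 0.051, -0.095 and -0.26 between ERT2 and Cre-ERT2 arrays of the same replicate number. Between arrays of unlike numbers they ran from -0.29 to 0.31. With so few arrays these values cannot settle whether the numbers pair the arrays. The replicate block left Irf1 (adjusted p = 0.0366) and Irf9 (0.0298) called, and gave 3 interferon receptor and JAK-STAT calls, 9 ISGF3 target calls and 3 antigen presentation calls.

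Called members of the Irf family numbered 4 with the trend, after loess, without the dimmest 30% or 50% and at 0.1, 6 with array weights, 1 with the mean of probe sets and 0 against 0.2. Partners numbered 9 with weights, 7 without the dimmest 30% and at 0.1, and 1 against 0.2. Inhibitors numbered 7 with the trend, weights, both filters and at 0.1, and 1 against 0.2. Sensors and kinases numbered 3 against 0.2 and 4 to 7 with single arrays left out. Receptors and JAK-STAT genes numbered 8 with weights, 3 after quantile normalization or median centring, 0 against 0.2, and 3 to 4 with single arrays left out. ISGF3 targets numbered 10 after quantile normalization, 3 against 0.2, and 9 to 13 with single arrays left out. Antigen presentation genes numbered 3 after quantile normalization or median centring, 0 against 0.2, and 1 to 4 with single arrays left out. Pre-B genes numbered 4 against 0.2. The test against 0.2 is limma's treat, and at an unadjusted p under 0.05 it passed 0 of 8 Irf genes, 1 receptor and JAK-STAT genes and 1 antigen presentation genes. The calls of Socs1, Il10rb, Ifnlr1, Oas1a, Gbp3 and Ciita were also lost after quantile normalization and after median centring, and those of Oas1a and Ciita after cyclic loess. The median of all genes lay between -0.048 and -0.011 under all settings.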
